A study of Mus musculus with 14 samples.

Results

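The baseline transcriptome of granulosa cells from antral follicles of lean mice was described from 7 control libraries, chosen by their group labels from the 14 libraries of the study. Of these, 4 were controls of the db model (CT db) and 3 were controls of the ob model (CT ob). The study asked how obesity with impaired leptin signalling changes granulosa cells, and the remaining 7 libraries came from db/db and ob/ob mutants. CT db mice were lean wild type females of the strain B6.BKS(D)-Leprdb/J (genotype db/db +/+), and CT ob mice were lean wild type females of B6.Cg-Lepob/J (genotype ob/ob +/+), all aged 12 weeks. The column names of the controls contain "het", while the labels give wild type, and this was not settled. Granulosa cells were released by puncturing antral follicles, oocytes were taken out, and about 50 cells entered each library. Polyadenylated RNA was captured on beads and amplified, and single reads of 75 bp were counted per gene by the authors. Each control group belongs to a colony of its own, so strain background and colony cannot be told apart, and no contrast between the control groups was tested. The labels give no day of processing. The labels do not say whether the replicates came from separate animals, so p-values measure only the spread between these samples, which may be technical.

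Granulosa cells line the follicle, nourish the oocyte through gap junctions and turn androgens from theca cells into oestradiol under follicle-stimulating hormone (FSH). Before the luteinizing hormone (LH) surge they divide, secrete inhibins, activins, follistatin and anti-Müllerian hormone, and are separated from the theca by a basement membrane. After the surge, mural cells luteinize while cumulus cells form an expanded matrix around the oocyte.

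The smallest library held 3624237 counts and the largest 4847166, so that 3 counts, the level that a count of 0 allows, amounted to 0.572 to 0.949 CPM (counts relative to library totals scaled by TMM). No molecular identifiers were used, so this limit covers counting error only. At least 1 count was found on 20053 ± 1330 genes per library (SD, n = 7), and 13790 genes had counts in all 7 libraries, 11759 of them protein coding. A further 7047 genes had counts in 1 library only. A mean of at least 10 CPM was reached by 9207 genes, which held 97.9% of the counts, and a mean of at least 1000 CPM by 57 genes, which held 23.6%. The 10 most abundant genes of a library held 16.4% ± 6.13 of its counts (SD, n = 7), and 722 ± 192 genes sufficed for 50% of them. Without CT ob library 68 these values were 14.1% ± 1.28 and 789 ± 84.9 genes (SD, n = 6).

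CT ob library 68 stood apart from the other 6 libraries. The 18S ribosomal RNA gene Rn18s-rs5 held 24.5% of its counts, against 1.61% to 8.12% elsewhere, and its 10 most abundant genes held 30.0%, against 12.7% to 16.1%. In that library 324 genes sufficed for 50% of the counts, against 718 to 919. Identifiers without a symbol in the annotation used held 1.51% of its counts and at most 0.111% elsewhere. Transcripts of ribosomal protein genes summed to 31973, 29745, 32407 and 33770.2 CPM in CT db and 24733, 30009 and 53571 CPM in CT ob, and those of the 13 protein-coding genes of the mitochondrial genome to 36641, 63511, 38131 and 51303 CPM in CT db and 26363, 27073 and 15613 CPM in CT ob. Library 68 was the highest for the former and the lowest for the latter. Correlations across 11850 genes between libraries (Pearson, log2 CPM) were 0.927 to 0.953 within CT db, 0.884 to 0.940 within CT ob and 0.852 to 0.941 between them, with genes not being independent replicates. The spread of gene lists within CT ob is given with and without library 68, an alternative chosen after seeing the data. What set this library apart was not tested.

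The 4 markers that define granulosa cells were present in all 7 libraries. Inha (ENSMUSG00000032968), the shared α subunit of the inhibins, had 3351, 4377, 5577 and 4470.4 CPM in CT db and 3551, 3153 and 6727 CPM in CT ob, in the order of CT db libraries 37, 51, 69 and 75 and of CT ob libraries 60, 65 and 68, which is kept throughout. It ranked 7th of all genes by mean CPM, at 4458 ± 1301 CPM (SD, n = 7), and was highest in library 68 and next in library 69. Of its 6678 annotated exon bases, 1099 overlap a neighbouring gene, so its level is uncertain by reads from that neighbour. Amh (ENSMUSG00000035262), the anti-Müllerian hormone of growing follicles, had 490.2, 253, 103 and 80.5 CPM in CT db and 442, 709.5 and 530.4 CPM in CT ob. Libraries 69 and 75 were the lowest for Amh, and of CT db library 37 alone reached into the range of CT ob. Fshr (ENSMUSG00000032937), the FSH receptor, had 181, 252, 326 and 308 CPM in CT db and 36.2, 116 and 84.4 CPM in CT ob. All 4 CT db libraries lay above all 3 CT ob libraries for Fshr. Foxl2 (ENSMUSG00000050397), the transcription factor that maintains granulosa cell identity, had 101, 53.1, 79.9 and 67.4 CPM in CT db and 94.9, 98.7 and 133 CPM in CT ob, with overlapping groups. Groups did not overlap for 21.4% of the 11850 genes with a mean count of at least 10, and for 9.2% the CT ob libraries were the higher ones. The share of 21.4% depends on the filter and the number of libraries, with 10.4% of 30986 genes when no count minimum was set and 23.97% to 31.7% with 1 library left out. Of the 4 markers, Fshr alone was such a gene. In bulk RNA, fewer cells of a type and less RNA per cell cannot be told apart.

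By mean CPM, the ranking of genes was led by Rn18s-rs5, a ribosomal RNA gene that is not polyadenylated in the usual way, at 82931 CPM and 50761 CPM without library 68. Transcripts of the mitochondrial genome took 5 of the next 9 places, with mt-Rnr2 at 23787, mt-Co1 at 13753, mt-Nd1 at 10701, mt-Cytb at 7231 and mt-Nd5 at 3092 CPM. For these 5 the groups did not overlap (beside 21.4% of all 11850 genes), with CT db higher. The ranking pools both groups, and the 10 most abundant protein-coding genes of CT db and those of CT ob shared 6. The most abundant transcript of the nuclear genome after Rn18s-rs5 was Gja1, which encodes connexin 43, the gap junction channel that couples granulosa cells to each other. Gja1 had 12490.5, 17984, 15595 and 20412 CPM in CT db and 5685, 6717 and 5176 CPM in CT ob. Every CT db library held more of it than every CT ob library. Inha followed, and then Ctsl, a lysosomal cysteine protease, at 3979.7 ± 1661 CPM (SD, n = 7). Among the other places up to the 20th were the translation factor gene Eef1a1 (3171 CPM), Actb of the cytoskeleton (3069.9 CPM) and the chaperone genes Hspa5 (2979 CPM), Hsp90ab1 (2558 CPM) and Pdia3 (2239 CPM). Akr1cl, an aldo-keto reductase gene, had 3186, 3467, 2705 and 3469.8 CPM in CT db and 1935, 2401 and 3336 CPM in CT ob. Its lowest library was 60, and the groups overlapped. Hnrnpa2b1, an RNA-binding protein gene, reached 2861 CPM, Ivns1abp 2756 CPM, the protease inhibitor gene Serpine2 2637 CPM and the tubulin gene Tubb5 2076 CPM. Groups did not overlap for Hnrnpa2b1 and Ivns1abp, with CT db higher, nor for Serpine2, Hsp90ab1 and Tubb5, with CT ob higher. The 19th place, ENSMUSG00000075014, has no symbol in the annotation used, and its mean of 2227 CPM fell to 343 CPM without library 68, which alone held 13584 CPM. Gja1, Ctsl, Eef1a1, Hspa5, Akr1cl, Hnrnpa2b1, Ivns1abp, Hsp90ab1, Pdia3 and Tubb5 also share exon bases with neighbouring genes, from 108 bases in Eef1a1 to 3166 in Hnrnpa2b1.

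CPM counts long transcripts more often than short ones, so a rank by mean CPM is not a rank by level per length. On the scale of mean CPM per kb, the leading protein-coding genes were mt-Nd1 (11182), mt-Co1 (8902), mt-Cytb (6321) and mt-Nd5 (1695). Actb (1050.3 CPM per kb) and Gja1 (976 CPM per kb) came next, followed by mt-Nd4 (808) and the ribosomal protein genes Rps4x (804), Rplp1 (803) and Rps3a1 (787). Rplp1 was at 401, 371, 392 and 409 CPM in CT db and 308, 412 and 1008 CPM in CT ob, and library 68 lay at the top.

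Among 27 hormone and secreted factor genes, 18 reached a mean of 10 CPM and 9 a mean of 100 CPM, and their sum was 6552, 7911, 12738 and 8782 CPM in CT db and 6595, 6077 and 10755 CPM in CT ob. Inha was the most abundant of them by mean CPM. Of the 20 with a mean count of at least 10, 12 were highest in library 69 within CT db (60%, against 24.3% of all 11850 genes) and 11 in library 68 within CT ob (55%, against 35.7%). Inhba encodes the βA subunit, which forms activin A with itself and inhibin A with Inha. It had 76.4, 166, 2502 and 734 CPM in CT db and 23.8, 51.2 and 160.3 CPM in CT ob. Library 69 held more Inhba than the other 6 libraries together, and the mean of 531 CPM fell to 200 CPM without it. Inhbb, the βB subunit gene, had 304, 432, 1186 and 662 CPM in CT db and 136, 83.02 and 669 CPM in CT ob, and its highest libraries were 69 and then 68. Fst encodes follistatin, which binds and blocks activins. With 835, 1241, 1439 and 1381 CPM in CT db and 624, 570.0 and 675 CPM in CT ob, every CT db library held more Fst than every CT ob library.

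Igf1, a growth factor that acts with FSH, had 518, 723, 347 and 389.9 CPM in CT db and 841, 516 and 485 CPM in CT ob. Library 60 was the highest and library 69 the lowest, and the groups overlapped. Bmp3, an antagonist in the bone morphogenetic protein family, had 171, 227, 504 and 422 CPM in CT db and 66.7, 143 and 81.6 CPM in CT ob, with no overlap of the groups. Ihh, the hedgehog ligand that granulosa cells send to theca cells, had 235, 48.7, 117 and 71.4 CPM in CT db and 248, 333 and 241 CPM in CT ob. Here the CT ob libraries were the higher ones without overlap, while library 37 came closest to them. Kitl, the ligand of the oocyte receptor Kit, had 71.2, 78.4, 109 and 65.8 CPM in CT db and 109.5, 68.8 and 36.1 CPM in CT ob, and its lowest library was 68. Grem1, a secreted antagonist of bone morphogenetic proteins, had 5.82, 4.85, 137 and 21.1 CPM in CT db and 0.762, 1.45 and 0.633 CPM in CT ob. Grem1 was high in library 69 and lower in every CT ob library than in any CT db library. Its mean of 24.6 CPM fell to 5.73 CPM without that library. The cytokine gene Mif had 377 CPM and Dhh, another hedgehog ligand gene, 33.9 CPM. At the low end, Bmp2 had a mean of 1.43 CPM, while Fstl3, Bmp4, Gdf10, Adm, Lep and Rspo1 had means under 1 CPM. Of the 20 genes with a mean count of at least 10, 5 did not overlap between the groups (beside 21.4% of all genes), 2 of them with CT ob higher (beside 9.2%). The median SD of log2 CPM was 0.79 over 14 of these genes in CT db and 0.64 over 15 in CT ob, while over all genes that passed the same count minimum it was 0.22 and 0.30. Without library 68 it was 0.48 over 14 of these genes in CT ob and 0.14 over all.

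Of 36 receptor genes, 34 reached a mean of 1 CPM, 28 a mean of 10 CPM and 11 a mean of 100 CPM, and none was at 0 in all libraries. Their sum was 3096, 4806, 3679 and 4162 CPM in CT db and 2649.9, 3151 and 3136 CPM in CT ob. By mean CPM, the list was led by Bmpr2, the type 2 receptor of bone morphogenetic proteins, with 416, 1283, 706 and 899 CPM in CT db and 253, 371 and 299 CPM in CT ob. All CT db libraries exceeded all CT ob libraries for Bmpr2, and library 51 was the highest. Per kb of annotated exon Bmpr2 lay under Amhr2 and Esr2, with means of 33.4, 113 and 105 CPM per kb. Its partners Bmpr1b and Bmpr1a, which are type 1 receptors, had means of 234 and 127 CPM. Amhr2, the receptor of anti-Müllerian hormone, had 230.1, 170.0, 119.8 and 170.1 CPM in CT db and 264, 269 and 395 CPM in CT ob. For Amhr2 the CT ob libraries were higher without overlap. Esr2, the oestrogen receptor β gene of granulosa cells, had 346, 528, 387 and 430.3 CPM in CT db and 293, 242 and 255 CPM in CT ob, and the 4 CT db libraries lay above the 3 CT ob libraries.

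Lhcgr, the LH receptor gene that mural cells gain late in follicle growth, had 11.1, 67.1, 8.63 and 19.3 CPM in CT db and 1.91, 19.3 and 4.43 CPM in CT ob. Library 51 stood above the others, and the mean of 18.8 CPM fell to 10.8 CPM without it. Prlr, the prolactin receptor gene, had 42.6, 133, 52.9 and 66.1 CPM in CT db and 18.1, 131 and 15.5 CPM in CT ob, high in libraries 51 and 65 and low in libraries 60 and 68. Receptors for insulin-like growth factor and insulin were present, with means of 257 CPM for Igf1r and 61.3 CPM for Insr. Npr2, the natriuretic peptide receptor through which granulosa cells hold the oocyte in meiotic arrest, had a mean of 223 CPM. Its ligand gene Nppc, made by mural cells, had 13.96 CPM. The adiponectin receptor genes Adipor1 and Adipor2 had means of 188 and 93.3 CPM, and the leptin receptor gene Lepr 1.24 CPM. Pgr, the progesterone receptor gene that the LH surge induces, had 0.225 CPM. Among the 33 receptor genes with a mean count of at least 10, 9 did not overlap between the groups (beside 21.4% of all 11850 genes), 2 of them with CT ob higher (beside 9.2%). Within CT db, 13 of the 33 were highest in library 51 (39.4%, against 27.6% of all 11850 genes) and 11 in library 75 (33.3%, against 19.0%), and within CT ob 16 were highest in library 65 (48.5%, against 26.1%). The median SD of log2 CPM was 0.38 over 21 receptor genes in CT db, 0.31 over 20 in CT ob and 0.27 over 21 in CT ob without library 68.

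Steroid synthesis was represented by 15 genes, of which 14 reached a mean of 10 CPM, 3 a mean of 100 CPM, and Sult1e1 had 0 counts in all 7 libraries. Their sum was 1323, 1403, 3353 and 1586 CPM in CT db and 1544, 1856 and 2864 CPM in CT ob. Hsd17b1, which encodes the enzyme that reduces oestrone to oestradiol, was the most abundant by mean CPM, with 569, 534, 1168 and 677 CPM in CT db and 731, 557 and 887 CPM in CT ob. Hsd3b1, whose enzyme makes progesterone from pregnenolone, had 163, 309, 1006 and 155 CPM in CT db and 191, 389 and 1189.8 CPM in CT ob. Both were highest in library 69 within CT db and in library 68 within CT ob. Cyp11a1, the side-chain cleavage enzyme gene that starts steroid synthesis, had 24.4, 83.5, 92.3 and 89.3 CPM in CT db and 5.72, 202 and 42.1 CPM in CT ob. It was low in libraries 37 and 60 and highest in library 65. Cyp19a1, the aromatase gene that FSH induces, had 19.1, 15.4, 104 and 29.2 CPM in CT db and 10.5, 17.1 and 15.2 CPM in CT ob. Library 69 stood above the other 6, and without it the mean of 30.1 CPM fell to 17.7 CPM. Star, which moves cholesterol into mitochondria, had 4.15, 15.4, 8.36 and 10.2 CPM in CT db and 6.86, 23.2 and 19.3 CPM in CT ob and was lowest in library 37. Of the 14 genes with a mean count of at least 10, 0 had groups that did not overlap (beside 21.4% of all 11850 genes), and 10 were highest in library 69 within CT db (71.4%, against 24.3%). Within CT ob, 8 of the 14 were highest in library 65 (57.1%, against 26.1%) and 5 in library 68 (35.7%, against 35.7%), and 10 were lowest in library 60 (71.4%, against 27.5%). The median SD of log2 CPM was 0.70 in CT db and 0.43 in CT ob, over 9 genes in each, and 0.28 over 10 genes in CT ob without library 68.

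Among 18 genes of granulosa cell identity, 16 reached a mean of 10 CPM and 12 a mean of 100 CPM. Their sum was 16397, 22851, 24625 and 26598 CPM in CT db and 9286, 10090.1 and 9982 CPM in CT ob, and Gja1 was the most abundant of them by mean CPM. For 5 of the 18 the groups did not overlap (beside 21.4% of all 11850 genes), 2 of them with CT ob higher (beside 9.2%). Foxo1, a transcription factor that FSH signalling restrains, had 786, 932, 1177 and 1343 CPM in CT db and 439.9, 735 and 809 CPM in CT ob, and its highest library was 75. The nuclear receptor gene Nr5a2, needed for ovulation, had 174, 366, 207 and 231 CPM in CT db and 108, 145 and 355 CPM in CT ob. Nr5a1, the steroidogenic factor 1 gene, had 109, 77.2, 181 and 109 CPM in CT db and 87.1, 85.9 and 133 CPM in CT ob, highest in library 69. Gata4 and Gata6, a pair of related transcription factor genes, had means of 175 and 62.6 CPM, and Wt1 had 92.2, 77.2, 23.7 and 53.8 CPM in CT db and 263, 238 and 106 CPM in CT ob. Of these transcription factor genes, Wt1 alone had groups that did not overlap, with CT ob higher. Runx2, which is induced by the LH surge, had a mean of 5.45 CPM.

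**Figure D1:**
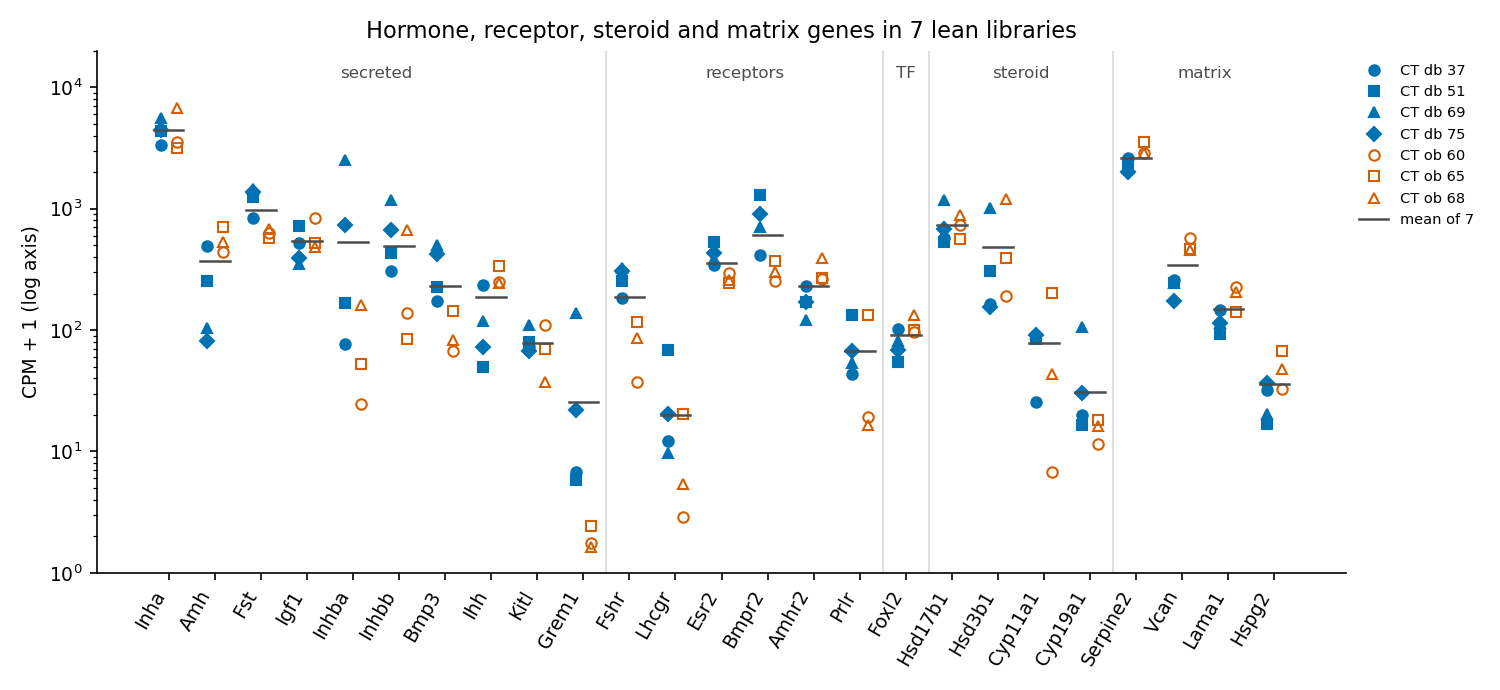
CPM of 25 genes in the 4 CT db and 3 CT ob libraries, as CPM + 1 on a log axis, with 1 point per library and a line at the mean of 7; Foxl2 stands alone as a transcription factor (TF). Inha lies between 3153 and 6727 CPM, while Inhba, Grem1 and Cyp19a1 are highest in CT db library 69.

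The matrix genes were led by a protease inhibitor. Serpine2, which encodes protease nexin 1, an inhibitor of plasminogen activators and thrombin, had 2601, 2373, 2165 and 1990.3 CPM in CT db and 2894, 3569.6 and 2865 CPM in CT ob. Its CT ob libraries lay above its CT db libraries. The list of 16 proteases and inhibitors summed to 2764, 2654, 2418 and 2289 CPM in CT db and 3249, 3841 and 3184 CPM in CT ob. Its other 15 genes had means under 100 CPM, with the stromelysin 3 gene Mmp11 at 59.4 CPM, Adamts5 at 48.1 CPM and the membrane protease gene Mmp14 at 30.2 CPM. Plat, the tissue plasminogen activator gene, had 0.554, 28.9, 12.7 and 2.14 CPM in CT db and 122, 20.3 and 5.06 CPM in CT ob. Its highest library was 60 and its lowest 37, and the mean of 27.3 CPM fell to 11.5 CPM without library 60. The oocyte gene Gdf9 had the same order of libraries within each group, with 1.11, 62.6, 32.6 and 5.35 CPM in CT db and 337, 67.8 and 14.5 CPM in CT ob, and the part of oocyte RNA in Plat was not tested. Of 12 genes of the list with a mean count of at least 10, 5 did not overlap between the groups (beside 21.4% of all 11850 genes), 4 of them with CT ob higher (beside 9.2%).

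Basement membrane genes were present at low levels, with all 18 at a mean of at least 1 CPM, 8 at 10 CPM or more and 1 above 100 CPM. Their sum was 307, 233, 338 and 319 CPM in CT db and 546, 606 and 437 CPM in CT ob, with every CT ob library above every CT db library. Lama1, which encodes the α1 chain of laminin 1, had 145, 91.1, 114 and 113 CPM in CT db and 227, 141 and 205 CPM in CT ob. The groups overlapped, with library 51 the lowest and library 60 the highest. Its chains Lamb1 and Lamc1 had means of 34.6 and 33.3 CPM, and the related Lamb2 had 46.6 CPM. Col4a1, a chain of collagen IV, had 4.15, 1.69, 2.16 and 1.87 CPM in CT db and 5.14, 67.8 and 14.9 CPM in CT ob, with every CT ob library above every CT db library. Its mean of 13.96 CPM fell to 4.87 CPM without library 65. Within CT ob, 12 of the 18 genes were highest in library 65 (66.7%, against 26.1% of all 11850 genes). Library 65 was also the highest of the 7 for summed CPM of stroma (117), smooth muscle and pericyte (51.6), endothelium (41.3) and immune genes (31.4), and the part of these cells in basement membrane genes was not tested. Of the 18, 5 did not overlap between the groups (beside 21.4%), all with CT ob higher (beside 9.2%).

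Proteoglycan and glycoprotein genes summed to 661, 667, 713 and 737 CPM in CT db and 1279, 1143 and 1058 CPM in CT ob. Vcan encodes versican, a proteoglycan of the follicular matrix, and was the most abundant of the 14 by mean CPM, with 256, 245, 242 and 174 CPM in CT db and 573, 465 and 459.5 CPM in CT ob. The groups were separate for Vcan, and library 75 was the lowest. Sdc1, the syndecan 1 gene, had 224, 159, 111 and 154 CPM in CT db and 325, 239.9 and 315 CPM in CT ob, also without overlap. Sparc, a matricellular glycoprotein gene, had 50.7, 40.1, 144 and 131 CPM in CT db and 230.1, 162 and 137 CPM in CT ob. Libraries 37 and 51 were the low ones for Sparc, and the groups overlapped. Fn1 had a mean of 7.02 CPM, and Npnt and Hapln1 lay under 1 CPM. No fibrillar collagen gene of 6 reached a mean of 10 CPM, and their sum was 18.8, 21.9, 28.1 and 21.7 CPM in CT db and 10.1, 109 and 31.6 CPM in CT ob. Col3a1, the most abundant of them by mean CPM at 9.93 CPM, had 5.05 CPM without library 65.

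Genes of cumulus expansion and ovulation were mostly near the limit of detection. The 12 genes summed to 1809, 1448, 975 and 1041 CPM in CT db and 1382, 1847 and 1345 CPM in CT ob. Rgs2, a regulator of G protein signalling, held most of this sum, with 1791, 1429, 927 and 1003 CPM in CT db and 1366, 1815 and 1306 CPM in CT ob. Its lowest library was 69 and its highest 65, and the groups overlapped. The protease gene Adamts1 had a mean of 24.4 CPM. Has2, which makes the hyaluronan of the expanded cumulus, had 0.253 CPM, Ptgs2 0.837 CPM, Tnfaip6 0.919 CPM and Ptx3 0.244 CPM. The epidermal growth factor-like ligand genes Areg and Ereg had 0.0345 and 0.0345 CPM. Apart from Rgs2 and Adamts1, the highest mean of the list was that of Btc, at 2.96 CPM. The lists of mural-type and cumulus-type granulosa genes held 5 genes each. Their sums were 44.9, 175, 147 and 130.0 CPM in CT db and 37.1, 249 and 75.6 CPM in CT ob for the mural-type list and 1228, 1040.3, 652 and 829 CPM in CT db and 1012, 1424 and 1404 CPM in CT ob for the cumulus-type list. Cyp11a1 led the former and Amh the latter by mean CPM. The mural-type sum was lowest in libraries 60 and 37, and the cumulus-type sum was lowest in library 69.

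Both genes of a pair were measured in the same library, so the log2 ratio of their CPM per kb, with a pseudocount of 1 CPM, was tested in 10 pairs by an exact two-sided sign-flip permutation test over the 7 libraries. The smallest p of this test was 0.0156, and p-values were adjusted over the 10 pairs by Benjamini-Hochberg. Of the 10 pairs, 9 passed at 0.05, and 7 of them kept direction and call under every alternative run, with other lengths, another pseudocount or 1 library left out. These 7 had the same sign in 7 of 7 libraries, so leaving out 1 library could not change their call. That alternative therefore shows nothing about their stability. The sizes of the ratios moved with the length used, and the canonical transcript and coding length were chosen after seeing the data. The log2 ratio of Fshr to Lhcgr was 5.28 ± 1.05 (SD, n = 7, exact adjusted p = 0.0195) and above 0 in 7 of 7 libraries. It ranged from 3.60 in library 51 to 6.80 in library 69, and the mean was 5.10 with the longest transcript, 3.59 per kb of coding sequence and 3.57 with no division by length. The log2 ratio of Esr2 to Esr1 was 4.18 ± 0.31 (SD, n = 7, exact adjusted p = 0.0195), also above 0 in 7 of 7 libraries. It ranged from 3.71 to 4.68. This pair and Bmpr1a over Bmpr1b had the smallest SDs of the 10, nearly equal. Their order reversed with a pseudocount of 0.1 CPM and without library 68. The mean of Esr2 over Esr1 was 3.08 with the longest transcript, 2.23 per kb of coding sequence and 2.13 with no division by length. For Inha over Amh the log2 ratio was 1.89 ± 1.43 (SD, n = 7, exact adjusted p = 0.0195), from 0.15 in library 65 to 3.78 in library 75, above 0 in 7 of 7 libraries. This mean was 2.26 with the longest transcript, 4.49 per kb of coding sequence and 3.89 with no division by length.

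Related transcription factors differed in level per kb. Gata4 exceeded Gata6 by a log2 ratio of 2.11 ± 0.57 (SD, n = 7, exact adjusted p = 0.0195), and Nr5a2 exceeded Nr5a1 by 0.99 ± 0.70 (SD, n = 7, exact adjusted p = 0.0195), each in 7 of 7 libraries. Over the other lengths the former lay between 1.42 and 1.77 and the latter between 0.66 and 1.54. Per library, Gata4 over Gata6 was 2.29, 1.28, 1.80 and 1.56 in CT db and 2.52, 2.54 and 2.81 in CT ob. The groups did not overlap for this ratio, so its mean pools 2 separate ranges. The matrix proteoglycan gene Vcan exceeded Hspg2, the perlecan gene of basement membranes, by 3.22 ± 0.65 (SD, n = 7, exact adjusted p = 0.0195) in 7 of 7 libraries. Bmpr1a lay under Bmpr1b, with a log2 ratio of -1.02 ± 0.32 (SD, n = 7, exact adjusted p = 0.0195) and 0 of 7 libraries above 0.

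The remaining 3 pairs depended on how length was counted or on 1 library. Inhba lay under Inhbb with a log2 ratio of -1.77 ± 1.30 (SD, n = 7, exact adjusted p = 0.0347), and 1 of 7 libraries, library 69, was above 0. The exact adjusted p of this pair was 0.0521 with the longest transcript, 0.0938 with no division by length and 0.117 per kb of coding sequence. Its call was also lost without library 37, 51, 75, 60, 65 or 68, where the ratio lay between -1.97 and -1.54 and the exact p was 0.0625. It held without library 69, at -2.13, and 6 libraries allow no exact p under 0.0312. Amhr2 over Bmpr2 gave 1.90 ± 1.35 (SD, n = 7, exact adjusted p = 0.0195) in 7 of 7 libraries, but -1.24 with no division by length and -0.37 per kb of coding sequence, and an exact adjusted p of 0.0521 with the longest transcript. The annotated exons of Bmpr2 span 18066 bases and its coding sequence 3114. Per library, Amhr2 over Bmpr2 was 2.29, 0.23, 0.60 and 0.75 in CT db and 3.20, 2.68 and 3.54 in CT ob, without overlap. Cyp19a1 over Cyp11a1 gave -0.92 ± 1.49 (SD, n = 7, exact adjusted p = 0.172) with 2 of 7 libraries above 0, and passed only with the canonical transcript, at -1.65.

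Genes of the cell cycle were abundant. Of 22, 20 had a mean of at least 100 CPM, with a sum of 7103, 6084, 6511 and 6497 CPM in CT db and 7929.6, 7191 and 6478 CPM in CT ob. Ccnd2, the cyclin D2 gene through which FSH drives granulosa cell division, led the list by mean CPM with 1299, 948, 918 and 879 CPM in CT db and 1671, 1180.2 and 1962 CPM in CT ob. Its relative Ccnd1 had 0.271 CPM. Top2a, a topoisomerase gene of dividing cells, had 819, 1172, 1217 and 1323 CPM in CT db and 871, 959 and 576 CPM in CT ob, and library 68 was the lowest. The median SD of log2 CPM was 0.26 in CT db and 0.23 in CT ob over 20 genes, against 0.22 and 0.30 over all genes that passed the same count minimum. Without library 68 it was 0.10 in CT ob over 20 genes, against 0.14. Within CT ob, 15 of 21 cell cycle genes were lowest in library 68 (71.4%, against 45.6% of all 11850 genes).

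Common reference genes differed in spread. Of the 16 on the list, Hprt1 had 243, 225, 227 and 247 CPM in CT db and 149.7, 155 and 126 CPM in CT ob, an SD of log2 CPM of 0.07 within CT db and 0.16 within CT ob. B2m, the light chain of major histocompatibility complex (MHC) class I, had 171, 223, 612 and 539.7 CPM in CT db and 149, 176 and 119.5 CPM in CT ob. Hprt1 had no overlap of the groups, with CT db higher. Libraries 69 and 75 were high for B2m, which ranked among the 100 most variable genes of CT db. Gapdh had 756, 517, 1288 and 848 CPM in CT db and 660.3, 613 and 793 CPM in CT ob, and Actb 2732, 2905, 3511 and 3929 CPM in CT db and 2334, 2709.5 and 3369 CPM in CT ob. Gapdh was highest in library 69 and Actb in library 75, with overlapping groups for both. The median SD of the list was 0.24 in CT db, 0.31 in CT ob and 0.15 in CT ob without library 68.

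Among markers of other cells that a follicle puncture can release, the oocyte list had the widest range. Its 12 genes summed to 3.32, 294, 173 and 17.1 CPM in CT db and 1268, 327 and 80.3 CPM in CT ob. Library 60 was the highest and library 37 the lowest. All 10 oocyte genes with a mean count of at least 10 were highest in library 51 within CT db (against 27.6% of all 11850 genes) and in library 60 within CT ob (against 38.2%). All 10 were lowest in library 37 within CT db (against 26.7%) and in library 68 within CT ob (against 45.6%). Gdf9, an oocyte growth factor gene and the most abundant of the list by mean CPM, had 1.11, 62.6, 32.6 and 5.35 CPM in CT db and 337, 67.8 and 14.5 CPM in CT ob. Bmp15, its relative, had 0, 60.1, 33.7 and 0.535 CPM in CT db and 213, 45.4 and 6.64 CPM in CT ob, with 0 counts in library 37. Zp3, a gene of the egg coat, had 0, 19.6, 11.1 and 0.535 CPM in CT db and 119.8, 32.1 and 9.17 CPM in CT ob, also with 0 counts there. Without library 60 the means of Gdf9, Bmp15 and Zp3 fell from 74.5, 51.4 and 27.5 CPM to 30.5, 24.3 and 11.97 CPM. The part of oocyte RNA in the other values of these libraries was not tested.

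Theca genes summed to 73.1, 95.7, 69.3 and 136 CPM in CT db and 74.7, 97.98 and 114 CPM in CT ob. The list was led by Ptch1 (53.2 CPM), a hedgehog target, and Nr2f2 (28.7 CPM). Tcf21, Hhip and Gli1 of this list had means of 0.719, 0.32 and 0.226 CPM. Cyp17a1, the theca enzyme that makes androgens, had 3.32, 0.422, 11.6 and 30.2 CPM in CT db and 0.572, 22.4 and 10.1 CPM in CT ob, and Insl3 had 0 counts in all 7 libraries. Library 75 was the highest for Cyp17a1, and the groups overlapped. Stroma genes summed to 16.9, 26.99, 34.5 and 24.6 CPM in CT db and 23.1, 117 and 36.7 CPM in CT ob, led by Pdgfra at 10.7 CPM. Smooth muscle and pericyte genes summed to 8.31, 8.01, 18.3 and 10.4 CPM in CT db and 9.53, 51.6 and 18.98 CPM in CT ob, led by Acta2 at 8.46 CPM, or 5.01 CPM without library 65. For endothelium the sum was 4.15, 4.43, 11.9 and 6.15 CPM in CT db and 23.8, 41.3 and 11.7 CPM in CT ob, led by Kdr at 4.44 CPM (2.26 CPM without library 60), and for immune cells 5.54, 8.01, 15.9 and 13.1 CPM in CT db and 3.62, 31.4 and 15.5 CPM in CT ob, led by Lyz2 at 3.68 CPM. Library 65 was the highest of the 7 for stroma, smooth muscle, endothelium and immune genes. None of these 4 lists had a gene of 100 CPM. The pan-leukocyte marker gene Ptprc had 0.439 CPM, Adgre1 of macrophages 0.419 CPM and Pecam1 of endothelium 3.71 CPM.

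Surface epithelium genes summed to 37.1, 32.5, 40.7 and 33.97 CPM in CT db and 58.1, 33.1 and 63.3 CPM in CT ob, most of it Krt8 at 33.05 CPM, with Upk3b at 0.510 CPM. Erythrocyte genes summed to 14.1, 17.1, 10.8 and 3.74 CPM in CT db and 20.8, 6.52 and 11.7 CPM in CT ob, which was nearly all Alas2, an enzyme of haem synthesis, at 11.9 CPM, while Hba-a1 and Hba-a2 had 0 counts and Hbb-bs had 0.129 CPM. Of 7 testis somatic and Y-linked genes, 5 had 0 counts in all libraries, among them Sry and Dmrt1, and the list summed to at most 0.633 CPM. Luteal genes, several of which growing follicles also use, summed to 561, 806, 1605 and 632 CPM in CT db and 548, 1191 and 1593 CPM in CT ob, led by Hsd3b1. Sfrp4 of this list had 20.2, 26.4, 32.4 and 25.7 CPM in CT db and 1.71, 192 and 3.80 CPM in CT ob. Library 65 was high for Sfrp4, and its mean of 43.1 CPM fell to 18.1 CPM without it. Inflammasome genes summed to 16.9, 17.7, 18.6 and 32.4 CPM in CT db and 17.7, 24.9 and 27.8 CPM in CT ob, with Pycard at 19.5 CPM, Il18 at 2.13 CPM and Nlrp3 at 0.436 CPM.

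**Figure D2:**
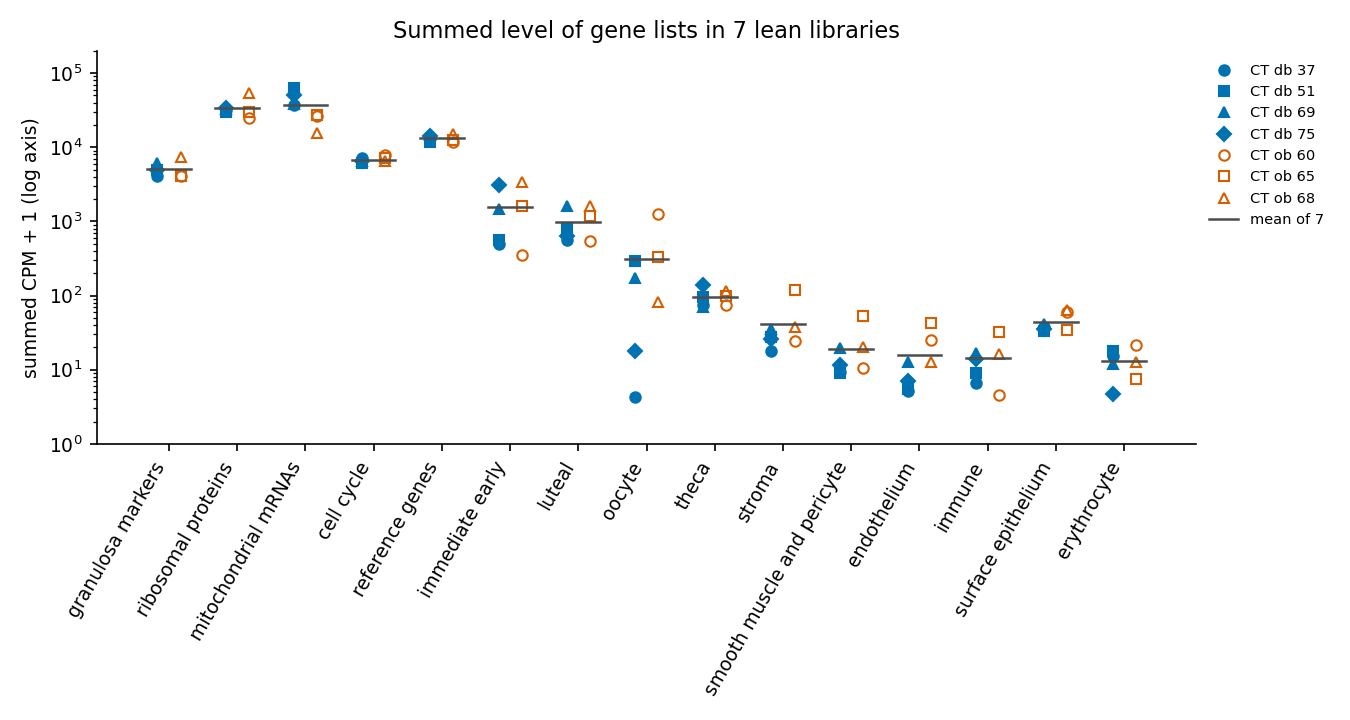
Summed CPM of 15 gene lists in the 4 CT db and 3 CT ob libraries, as summed CPM + 1 on a log axis, with 1 point per library and a line at the mean of 7. Oocyte genes range from 3.32 to 1268 CPM, while cell cycle genes lie between 6084 and 7930 CPM.

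Variability between libraries was measured as the SD of log2 CPM within each control group, over genes with a mean count of at least 100 in that group. In CT db the median SD was 0.22 over 6651 genes, and in CT ob it was 0.30 over 6960 genes. Without library 68, the median of CT ob was 0.14. Of the genes of CT ob, 59.8% were farthest from the group median in library 68. Counting alone gives a median SD of 0.09 in either group at these depths. The common biological coefficient of variation of edgeR was 0.226 in CT db, 0.314 in CT ob and 0.235 in CT ob without library 68. With 4 and 3 libraries, an SD of a single gene is itself imprecise, and the lists are descriptions of these libraries.

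In CT db the 10 most variable genes were Bmp15, Nlrp14, Gdf9, Inhba, Grem1, Fhl1, Egr1, H2-D1, Fetub and Cebpa, with SDs from 3.49 to 1.71. Bmp15, Gdf9 and Nlrp14 are oocyte genes, and they were lowest in library 37. H2-D1, a heavy chain gene of MHC class I, had 28.8, 52.1, 382 and 299.8 CPM in CT db and 30.1, 35.2 and 45.5 CPM in CT ob. It was high in libraries 69 and 75, as was B2m, and without library 69 its mean of 125 CPM fell to 81.3 CPM. H2-K1, another class I gene, outside the rule for named genes and picked with its values known, had 42.9, 49.98, 373 and 267 CPM in CT db and 34.7, 46.8 and 98.99 CPM in CT ob. Cebpa, a transcription factor that acts in luteinization, had 6.65, 6.96, 83.1 and 28.3 CPM in CT db and 6.67, 5.07 and 12.7 CPM in CT ob, and without library 69 its mean of 21.3 CPM fell to 10.98 CPM. Fetub, which encodes fetuin B, an inhibitor of the protease that hardens the egg coat, had 5.82, 8.44, 56.4 and 63.9 CPM in CT db and 5.14, 7.24 and 9.17 CPM in CT ob. Fhl1 had 6.09, 10.8, 70.4 and 92.00 CPM in CT db and 2.48, 15.2 and 12.3 CPM in CT ob, and its mean of 29.9 CPM fell to 19.6 CPM without library 75. Within CT db, libraries 69 and 75 were the high ones for Inhba, Grem1, Fhl1, Egr1, H2-D1, Fetub and Cebpa. Of the 100 most variable genes of CT db, 47 were farthest from the group median in library 37 and 31 in library 69, against 31.5% and 23.7% of all 6651 genes.

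In CT ob the 10 most variable genes were 9 identifiers without a symbol and Sfrp4, with SDs from 3.86 to 3.26. All 9 identifiers were highest in library 68, such as ENSMUSG00000096201 with 1.66, 6.75, 3.78 and 8.29 CPM in CT db and 0.953, 4.83 and 115 CPM in CT ob. Next came Ccn2, a target of mechanical signalling, with 43.5, 40.7, 154 and 418 CPM in CT db and 4.001, 155 and 5.38 CPM in CT ob. Ccn2 was low in libraries 60 and 68 and highest in library 75. Igfbp7, a secreted binding protein gene also picked with its values known, had 2.22, 3.80, 12.4 and 4.55 CPM in CT db and 2.29, 70.2 and 1.58 CPM in CT ob, and library 65 was the highest. Of the 8 oocyte genes that passed the count minimum in CT ob, all 8 were among its 100 most variable genes, and of the 10 immediate early genes that passed, 8 were, beside 100 of all 6960 genes. A gene that is high in 1 library can pass the minimum through that library, such as Zp3 with 119.8, 32.1 and 9.17 CPM in CT ob. The filter thus favours a large spread among such genes, and these counts do not test it. Of the 100 most variable genes of CT ob, 49 were farthest from the group median in library 60, 37 in library 68 and 14 in library 65, against 22.0%, 59.8% and 18.2% of all 6960 genes.

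The least variable genes were of general function. In CT db they included Mrpl18, Gpkow, Mrps17, Ndel1, Ssr2, Rnf111, Ecd, Taf1b and Tbcd, with Mrpl18, a mitochondrial ribosomal protein gene, at 103, 102, 103 and 102 CPM. In CT ob they were Pole3, Rraga, Txndc9, Uhmk1, Cops7a, Qser1, Lrrc45, Dsel, Prmt5 and Glt8d1, with the DNA polymerase subunit gene Pole3 at 92.8, 92.7 and 92.7 CPM. An SD under the one that counting gives was found for 450 genes of CT db and 576 genes of CT ob. Among them were 89 of the 100 least variable genes of CT db and all 100 of CT ob. Both the order of the least variable genes and their membership in these lists are therefore uncertain. Of the ribosomal protein genes that passed the count minimum, 71 of 78 lay under the median SD in CT db, 5 of 80 in CT ob, and 20 of 78 in CT ob without library 68. Within CT ob, 81 of the 84 with a mean count of at least 10 were highest in library 68 (96.4%, against 35.7% of all 11850 genes) and 77 were lowest in library 60 (91.7%, against 27.5%).

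The 2 lists of the 100 most variable genes, out of 6651 in CT db and 6960 in CT ob, shared 17 genes, which is 17% of each list, and the lists of the 100 least variable genes shared 7. Across 6298 genes that passed the count minimum in both groups, the Spearman correlation of the SDs was 0.124, and it was 0.223 without library 68 and 0.0312 without library 65. It is a correlation across genes, which are not independent replicates. With a mean count of at least 20, the most variable lists shared 30 genes and the correlation was 0.233. Of the 100 most variable genes of CT db, 58 passed the count minimum in CT ob, with a median SD there of 0.69, against 0.30 over all genes. Conversely, 41 of the 100 of CT ob passed in CT db, with a median SD there of 0.82, against 0.22 over all genes. The 17 shared genes were the oocyte genes Bmp15, Nlrp14 and Gdf9, the immediate early genes Egr1, Fos, Junb, Ier2 and Zfp36, the growth arrest gene Btg2, the signalling genes Inhba and Ccn2, the steroid genes Cyp11a1 and Hsd3b1, the glutathione peroxidase gene Gpx3, Rn18s-rs5, and 2 identifiers without a symbol. The 7 least variable ones were Ybx1, Caml, Ncaph2, Pex5, Tbcd, Tmed10 and Cilk1. Ybx1, an RNA-binding protein gene, had 399, 414, 404 and 401 CPM in CT db and 447, 456 and 451 CPM in CT ob. Tbcd, a tubulin chaperone gene, had 51.2, 52.5, 50.7 and 51.3 CPM in CT db and 51.8, 51.2 and 49.3 CPM in CT ob.

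**Figure D3:**
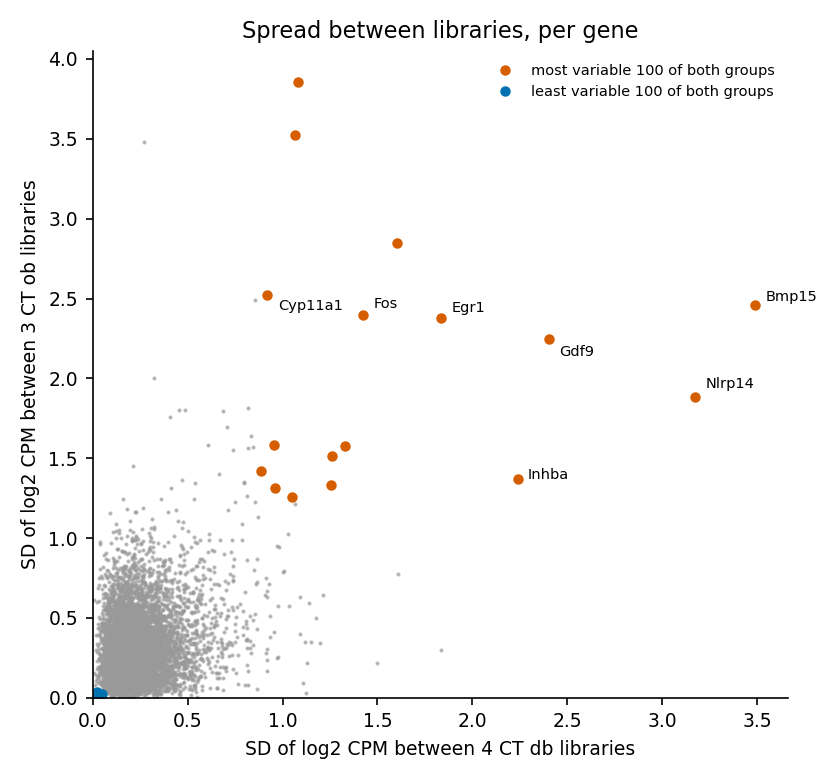
SD of log2 CPM between the 4 CT db libraries (x axis) and between the 3 CT ob libraries (y axis) for 6298 genes, 1 point per gene; orange points are the 17 genes among the 100 most variable of both groups and blue points the 7 among the 100 least variable of both. The cloud shows little common order, with a Spearman correlation of 0.124 (0.233 with a mean count of at least 20).

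Immediate early genes, which respond to signals within minutes, were highest in the same library within each control group. The 12 genes summed to 490.2, 562, 1460.5 and 3083 CPM in CT db and 354, 1634 and 3442 CPM in CT ob. All 11 with a mean count of at least 10, which Atf3 did not reach, were highest in library 75 within CT db (against 19.0% of all 11850 genes) and in library 68 within CT ob (against 35.7%). Within CT db, 7 of the 11 were lowest in library 37 (63.6%, against 26.7%) and 4 in library 51 (36.4%, against 27.6%), and within CT ob 10 were lowest in library 60 (90.9%, against 27.5%). Fos, the most abundant of the list by mean CPM, had 129.6, 207, 536 and 1186 CPM in CT db and 43.4, 526 and 1033 CPM in CT ob. Egr1, another inducible transcription factor, had 50.1, 64.7, 273 and 761 CPM in CT db and 24.2, 270.1 and 582 CPM in CT ob. Jun had 142, 111, 316 and 560.0 CPM in CT db and 119, 387 and 608 CPM in CT ob. Of all 7 libraries, 75 was the highest for Fos and Egr1, and 68 for Jun. Libraries 37, 51 and 60 were the low ones for Fos, Egr1 and Jun. Fosb, a relative of Fos, had 22.4, 42.2, 60.7 and 92.8 CPM in CT db and 12.6, 94.6 and 406 CPM in CT ob, and its mean of 105 CPM fell to 55.6 CPM without library 68. The median SD of log2 CPM was 1.01 over 8 of the genes in CT db, 1.82 over 10 in CT ob and 2.03 over 7 in CT ob without library 68.

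The bases before the start of immediate early genes are shown because those that reached the count minimum were highest in the same library within each control group. RefSeq promoters of build GRCm38.p6 were matched by symbol for 10 of the 12 genes, with 1 promoter per symbol. They were searched over 250 bases before the start. Promoters of 1 chromosome, that of Egr1, were left out for these genes, so Egr1 was not searched. The 32851 promoters set beside them kept that chromosome and were not reduced to 1 per symbol. The motifs were the half-site of the cAMP response element (TGACG, on both strands), the TATA box (TATAAA, on the coding strand) and the CArG box of serum response factor, and matches of different motifs did not overlap in the bases shown. The half-site was in 6 of the 10 promoters, against 17.8% of all 32851, the TATA box in 1 of 10, against 7.59%, and the CArG box in 1 of 10, against 1.47%. All 6 genes with a match in the last 120 bases are given, 5′ to 3′, with the match in capitals. Those of Fos (chr12:85473770-85473889) and Nr4a1 (chr15:101266726-101266845) lie on the plus strand. Those of Atf3 (chr1:191183334-191183453), Fosb (chr7:19310046-19310165), Junb (chr8:84978749-84978868) and Zfp36 (chr7:28379229-28379348) lie on the minus strand. A match is a description of the letters and not of a bound site.
Atf3: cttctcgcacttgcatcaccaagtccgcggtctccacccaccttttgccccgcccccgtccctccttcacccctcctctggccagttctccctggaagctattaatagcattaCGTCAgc
Fos: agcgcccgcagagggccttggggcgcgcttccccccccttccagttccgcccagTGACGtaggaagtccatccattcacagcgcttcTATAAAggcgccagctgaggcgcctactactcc
Fosb: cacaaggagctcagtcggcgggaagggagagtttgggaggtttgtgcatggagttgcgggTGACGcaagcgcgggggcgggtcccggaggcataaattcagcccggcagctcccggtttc
Junb: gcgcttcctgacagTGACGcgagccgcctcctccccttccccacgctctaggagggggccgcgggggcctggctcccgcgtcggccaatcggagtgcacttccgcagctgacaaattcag
Nr4a1: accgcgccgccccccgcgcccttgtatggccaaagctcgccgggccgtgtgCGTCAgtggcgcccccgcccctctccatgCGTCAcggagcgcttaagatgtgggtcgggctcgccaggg
Zfp36: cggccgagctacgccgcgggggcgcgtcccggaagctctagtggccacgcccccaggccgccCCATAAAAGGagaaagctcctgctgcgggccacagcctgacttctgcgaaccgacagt
In Fos the half-site began 66 bases and the TATA box 33 bases before the start, and in Zfp36 the CArG box began 58 bases before it.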

How the data were processed

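Granulosa cells of antral follicles were profiled in 14 libraries of 4 groups, of which the 7 control libraries (CT db and CT ob) were used here, grouped by the sample labels. The authors deposited raw counts per gene, as 1 table of 55414 Ensembl identifiers. The study's methods name cutadapt, STAR, GRCm39 and featureCounts, while the submitters' processing notes name FastQC, Trim Galore 0.6.2, HISAT2 2.1.0 and GRCm38, and this was not settled. Strand and the handling of reads with several matches are not given in the sources used here, so genes that overlap or have near-identical copies are uncertain. The columns were assigned to groups by the paper's supplement, which lists the column names under each genotype. The names carry no replicate number of the labels.

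From the counts, CPM were computed with edgeR 4.0.16 in R 4.3.3, with TMM scaling over the 7 libraries. Genes were ranked by mean CPM. Log2 CPM had a prior count of 2, and the SD of log2 CPM was taken within each group for genes with a mean count of at least 100 there. Non-overlap was counted for genes with a mean count of at least 10. Pairs of genes were tested by an exact sign-flip permutation test on log2 ratios of CPM per kb, with lengths from the union of exons in GENCODE M39 and Benjamini-Hochberg adjustment. Symbols were found for 54749 identifiers. Python 3.11.15, numpy 2.4.6, pandas 2.3.3, scipy 1.17.1 and matplotlib 3.10.9 were used, and the steps were tested on simulated data. No contrast between the groups was tested.

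The genes named were the 20 most abundant by mean CPM, the 10 most abundant protein-coding genes per kb, the 10 most and 10 least variable genes of each group, those shared by both groups, and the members of 26 lists with 276 genes, of which some are not reported here. The members and lists were chosen with earlier results of these data known. Alternatives were other scalings, prior counts, pseudocounts, count minimums, gene classes and lengths, thinning of counts, and leaving out each library in turn.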

Additional observations from a re-analysis of the deposited data

Results flagged for a closer look

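Within CT db, 103 values were compared with Dixon's limit for 4 libraries, and 9 of them (8.74%) had 1 library past it. Chance places about 1 in 20 groups past this limit if values are independent and normally distributed. The 103 values were not log transformed, and many belong to genes chosen with earlier results known. Some overlap, such as Cyp19a1 and the sum of steroid synthesis genes. The share of 8.74% can therefore not be read against that rate. CT ob, with 3 libraries, was not tested in this way.

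CT db library 69 was far above the others for 3 values. Its CPM were 137 for Grem1 (4.85 to 21.1 in the others) and 104 for Cyp19a1 (15.4 to 29.2), and its summed CPM of steroid synthesis genes was 3353 (1323 to 1586). Library 37 was low for Cyp11a1, with 24.4 CPM against 83.5 to 92.3, and high for Hsp90ab1, with 2579 CPM against 2048 to 2113. Library 75 was low for Vcan, with 174 CPM against 242 to 256. It was high for the summed CPM of the 5 inflammasome genes, with 32.4 against 16.9 to 18.6. Most of that sum is Pycard, at a mean of 19.5 CPM over the 7 libraries. Il18 had 2.13 CPM, and Nlrp3, Casp1 and Il1b had 0.436, 0.114 and 0.103 CPM. In library 75 the sum of testis somatic and Y-linked genes was 0 CPM, against 0.540 to 0.633, which are levels of 3 counts or fewer. Library 51 had more counts in total, with 4840714 against 3624237 to 3807338.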

How the results depend on the processing

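Of 237 alternatives for 20 results, 210 kept direction and side of the threshold, a value within the spread between libraries, or a count within 1.5 times. Some counts that kept to this limit lay outside the spread. Genes detected per library were 15256 with at least 3 counts, and 979 genes held 50% of the counts without ribosomal RNA genes, 1076 also without mitochondrial transcripts and 955 among protein-coding genes. Named genes were compared in 9 settings each. Of 2943 values, 12 moved by 1 SD or more, 11 of them with totals taken without ribosomal RNA genes. Leaving out 1 library can hardly move a mean over 7 libraries by 1 SD, so those settings show nothing about stability. This also holds for the shares of counts in the 10 and 100 most abundant genes. By a limit of 1.5 times, 18 named genes of at least 1 CPM moved without library 60. There were 17 without library 65, 14 without 68, 6 without 69 and 1 each without 51 and 75. No paired analysis was possible because the columns carry no replicate numbers of the labels. The lengths of the canonical transcript and of the coding sequence, and the spread of gene lists in CT ob without library 68, were chosen after seeing the data. The share of counts in the 10 most abundant genes was 7.49% without ribosomal RNA genes, 5.08% also without mitochondrial transcripts and 7.45% over protein-coding genes. The share in the 100 most abundant was 19.6%, 16.8% and 19.7% in the same order. These settings remove leading genes by construction.

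With a mean count of at least 20, the median SD in CT db was 0.26, the most variable lists shared 30 genes and the Spearman correlation of the SDs was 0.233. Leaving out 1 library gave a median SD of 0.196 to 0.236 in CT db and 0.140 to 0.324 in CT ob, and a Spearman correlation of 0.0312 to 0.223. Groups that did not overlap made up 10.4% of genes with no count minimum, 18.8% without TMM and 23.97% to 31.7% with 1 library left out. For Inhba over Inhbb the log2 ratio was -1.64 with the longest transcript, -1.05 with no division by length, -1.09 with coding length and -2.13 to -1.54 with 1 library left out. For Amhr2 over Bmpr2 it was 1.46 with the longest transcript, and it reversed to -1.24 with no division by length and to -0.37 with coding length. For Cyp19a1 over Cyp11a1 it was -1.65 with the canonical transcript, where the pair passed. The cause of these differences was not tested. Depth limits low genes, since 3 counts amount to 0.572 to 0.949 CPM.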

Other observations

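Transcripts of the mitochondrial genome were uneven in the counts. Of its 13 protein-coding genes, mt-Co1 had a mean of 13753 CPM, while mt-Atp6, mt-Co3, mt-Co2, mt-Atp8 and mt-Nd4l had means under 1 CPM, the highest being that of mt-Atp6 at 0.753 CPM. These values are uncertain, as the handling of reads with several matches is not given in the sources used here.

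Of the 100 most abundant protein-coding genes by the mean of all 7 lean libraries, 86 were among the 100 of db/db and 88 among the 100 of ob/ob. The 100 of CT db and the 100 of CT ob shared 75.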
